A study of Homo sapiens with 6 samples.

Results

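Peaks of MYT1L occupancy were examined at 6 genes of neurotrophin signalling, namely the ligand genes BDNF, NTF3 and NTF4 and the receptor genes NTRK2, NTRK3 and NGFR. The members were listed by name, and a peak was counted at a gene when it shared at least 1 bp with the gene body or the 5 kb beyond either end, called the locus here. They are 6 of the 20037 protein-coding genes in the GRCh38.p14 gene table, and their loci cover 974 kb. Occupancy had been profiled by CUT&RUN, in which an antibody directs a nuclease to a chromatin protein and the released DNA is sequenced. All 6 libraries came from wild-type H1, an established human embryonic stem cell line, at day 30. The antibody was against MYT1L, a zinc-finger transcription factor of neurons, in 4 libraries and was IgG, the negative control, in 2. The design text speaks of cortical interneurons derived from such cells, but each sample is labelled by cell type as embryonic stem cells. Peak lists carry no expression values, so the cell identity could not be checked, and a single cell line limits the model. Nothing in the labels says whether replicates were separate differentiations, so p-values measure only the spread between these samples.

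Neurotrophins are secreted growth factors that are made as precursors and keep neurons alive, guide their branching and tune their synapses. BDNF and neurotrophin-4, the product of NTF4, act through TrkB, the receptor tyrosine kinase encoded by NTRK2, and neurotrophin-3 from NTF3 acts mainly through TrkC, encoded by NTRK3. NGFR encodes the p75 receptor of the tumour necrosis factor receptor family, which binds all of them. BDNF is transcribed from several alternative promoters, some of which respond to neuronal activity. BDNF acting on TrkB supports the maturation of cortical inhibitory neurons.

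The promoter windows on which the results turn are shown first. RefSeq windows on GRCh38.p14 reach from 250 bases before to 50 after an annotated start, and 5 of the 6 genes matched with 13 windows; NGFR is named only. The following 3 windows were overlapped by MYT1L peaks and are written 5′ to 3′ on the gene's strand. In the NTRK2 windows, capitals mark bases under peaks of at least 2 MYT1L libraries, and in the NTRK3 window the bases under the peak of MYT1L replicate 4.
NTRK2, chr9:84669783-84670082, plus strand: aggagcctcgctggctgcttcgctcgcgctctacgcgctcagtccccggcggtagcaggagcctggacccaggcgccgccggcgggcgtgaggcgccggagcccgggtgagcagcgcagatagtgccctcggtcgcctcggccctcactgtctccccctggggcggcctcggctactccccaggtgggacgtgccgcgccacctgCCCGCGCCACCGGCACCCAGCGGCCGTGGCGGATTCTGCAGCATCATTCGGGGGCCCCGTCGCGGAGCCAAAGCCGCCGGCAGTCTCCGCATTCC
NTRK2, chr9:84670099-84670398, plus strand: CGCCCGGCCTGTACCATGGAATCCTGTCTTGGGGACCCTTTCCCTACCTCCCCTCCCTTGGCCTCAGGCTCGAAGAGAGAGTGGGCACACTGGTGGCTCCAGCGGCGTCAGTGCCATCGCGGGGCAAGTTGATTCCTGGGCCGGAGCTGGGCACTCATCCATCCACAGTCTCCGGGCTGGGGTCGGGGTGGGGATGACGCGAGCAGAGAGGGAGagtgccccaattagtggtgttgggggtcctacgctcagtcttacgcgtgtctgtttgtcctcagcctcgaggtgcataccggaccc
NTRK3, chr15:88256690-88256989, minus strand: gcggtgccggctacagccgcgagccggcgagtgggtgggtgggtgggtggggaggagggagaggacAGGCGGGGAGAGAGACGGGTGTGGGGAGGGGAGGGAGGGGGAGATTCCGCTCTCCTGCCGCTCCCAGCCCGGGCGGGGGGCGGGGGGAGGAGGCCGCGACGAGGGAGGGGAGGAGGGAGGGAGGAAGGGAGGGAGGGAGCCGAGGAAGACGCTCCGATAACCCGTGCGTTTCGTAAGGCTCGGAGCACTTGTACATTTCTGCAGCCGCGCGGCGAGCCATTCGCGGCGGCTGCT

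The next 3 windows had no peak and were the member windows that held AAGTTT or, on the other strand, AAACTT, the core letters of MYT1-family zinc fingers, set in capitals.
BDNF, chr11:27721981-27722280, minus strand: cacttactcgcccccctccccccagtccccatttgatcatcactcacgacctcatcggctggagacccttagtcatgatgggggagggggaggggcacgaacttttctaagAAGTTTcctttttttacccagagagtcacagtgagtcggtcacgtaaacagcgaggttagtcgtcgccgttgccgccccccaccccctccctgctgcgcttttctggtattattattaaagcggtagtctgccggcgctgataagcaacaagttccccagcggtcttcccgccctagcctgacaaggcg
BDNF, chr11:27659609-27659908, minus strand: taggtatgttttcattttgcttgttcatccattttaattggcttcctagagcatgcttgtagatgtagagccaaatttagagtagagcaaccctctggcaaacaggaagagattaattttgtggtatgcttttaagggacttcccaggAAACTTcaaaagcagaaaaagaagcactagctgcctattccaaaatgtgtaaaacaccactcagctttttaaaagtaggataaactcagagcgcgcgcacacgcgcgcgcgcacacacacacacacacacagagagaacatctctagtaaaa
NTF3, chr12:5431858-5432157, plus strand: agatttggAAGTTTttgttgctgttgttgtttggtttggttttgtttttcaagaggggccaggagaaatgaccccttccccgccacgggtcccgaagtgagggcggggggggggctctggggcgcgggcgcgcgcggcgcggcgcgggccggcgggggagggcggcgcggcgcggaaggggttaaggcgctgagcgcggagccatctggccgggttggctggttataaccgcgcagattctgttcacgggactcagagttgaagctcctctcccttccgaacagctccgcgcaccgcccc

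MYT1L peaks lay at every one of the 6 genes, and no IgG peak lay at any of them. A peak of at least 1 MYT1L library was present at 84.1% of all protein-coding loci, and a peak of at least 1 IgG library at 4.16%. Each MYT1L library had a peak at 4 of the 6 genes, against 68%, 43%, 57.3% and 77.6% of all loci in replicates 1 to 4, and the IgG libraries at 0 of 6, against 1.61% and 2.9%. The loci held 27 MYT1L peaks, of which replicates 1, 2 and 3 had 5 each and replicate 4 had 12. Replicate 4 therefore stood above the other 3, which were equal. The mean was 6.75 ± 3.50 peaks (SD, n = 4) against 0 in both IgG libraries, a difference of 6.75. By an exact two-sided permutation test p was 0.133, the lowest value that 15 splits can give. Without MYT1L replicate 4 the difference was 5. The groups did not overlap in the lists as deposited, but they met at 0 in both settings that shortened the lists. With −log10 q no lower than 5, MYT1L replicates 1 to 4 had 1, 0, 3 and 11 peaks (difference 3.75, exact permutation p = 0.4). With the 12310 top peaks of each MYT1L list they had 0, 5, 4 and 3 (difference 3, exact permutation p = 0.4), and replicate 4 was then not the highest.

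The lists differ greatly in length, so the peaks at the loci were also set against each list. Lists held 12310 to 30086 MYT1L peaks and 976 and 998 IgG peaks on chromosomes 1 to 22, X and Y. The loci took 0.0179% of the peaks of MYT1L replicate 1 (exact 95% interval 0.00581% to 0.0418%). The shares of the other 3 were 0.0406%, 0.0264% and 0.0399%, and the mean was 0.0312% ± 0.0110 (SD, n = 4). Against IgG the exact two-sided permutation p was again 0.133. A count of 0 among 976 and 998 peaks allows a share of up to 0.307% and 0.301%, which is above every MYT1L share. At this list length the absence of IgG peaks from the loci was therefore not distinguishable from the MYT1L shares. Intervals and limits cover counting error only.

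Depth differed between the libraries as well. A whole number of fragments at the summit, its pileup, could be recovered from the authors' fold and p. The lowest local background, in fragments over a base, was 0.421 to 1.18 in MYT1L and 0.329 and 0.190 in IgG libraries. The part of depth in the absence of IgG peaks from the 6 loci was not tested.

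**Figure D1:**
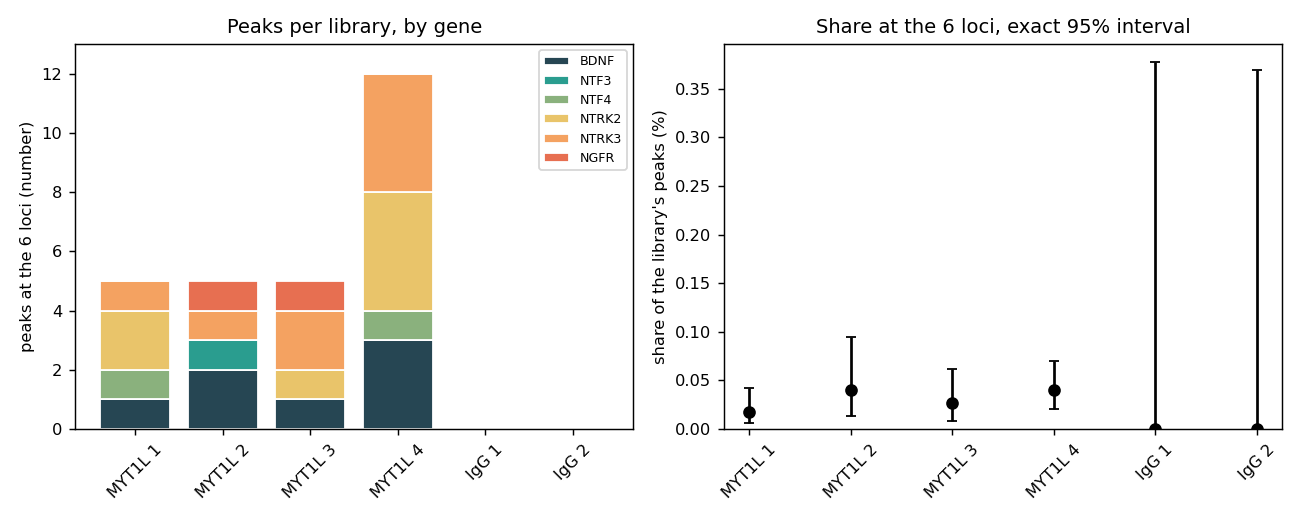
The left panel gives the number of peaks at the 6 loci in each library, stacked by gene, and the right panel the share of each library's peaks in percent with its exact 95% interval. MYT1L replicate 4 reaches 12 peaks against 5 in each of the other MYT1L libraries, and the IgG intervals extend beyond all MYT1L shares.

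Peaks were sparser over these loci than over protein-coding loci in general. The 6 loci had 0.513 peaks per 100 kb in each of MYT1L replicates 1 to 3 and 1.23 in replicate 4, whereas all protein-coding loci had 1.30, 0.629, 0.931 and 1.53. The ratio of the densities was 0.396, 0.815, 0.551 and 0.804, below 1 in 4 of 4 libraries. Its mean was 0.642 ± 0.204 (SD, n = 4), and an exact two-sided sign-flip permutation test of the log2 ratio gave p = 0.125, the lowest value open to 4 libraries. The members include very long genes, which bears on the density. Set against loci within 1.5 times their own length, the members would together have held 9.14, 4.33, 6.61 and 10.5 peaks in replicates 1 to 4. The observed numbers were 0.547, 1.15, 0.756 and 1.14 times those, with a mean of 0.900 ± 0.299 (SD, n = 4). Beside genes of like length the members thus lay on both sides of 1, and the spread between libraries was larger than the mean difference.

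**Figure D2:**
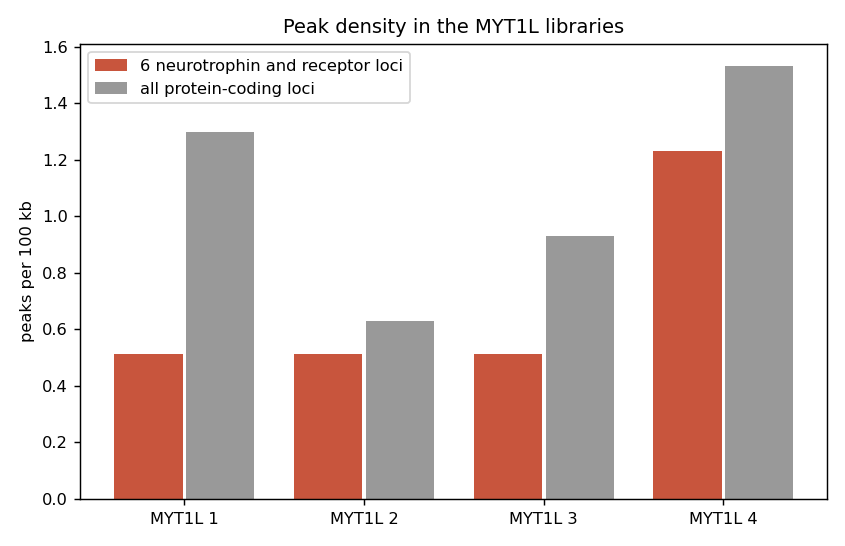
Bars give peaks per 100 kb in each MYT1L library, over the 6 loci and over all protein-coding loci. The bars of the 6 loci are the lower of each pair, with ratios from 0.396 to 0.815.

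Agreement between libraries was low at these genes. The 27 peaks formed 20 regions, a region being a set of MYT1L peaks joined by overlap. Of these, 16 regions (80%) had a peak in 1 library, 3 in 2 libraries and 1 in 3 libraries. Over the whole genome 58.1% of regions had a peak in 1 library. A region with peaks in at least 3 of the 4 MYT1L libraries, called reproducible, was found at 1 of the 6 members, NTRK2, against 50.3% of all protein-coding loci. Regions of at least 2 libraries lay at 3 of 6 members (BDNF, NTF4 and NTRK2), against 67.3% of all loci. BDNF and NTRK3 had peaks in all 4 MYT1L libraries, as did 32.8% of loci, and with NTRK2 they were the 3 members with peaks in at least 3, as had 56.8% of loci. Of the peaks at NTRK3 none overlapped a peak of another library, whereas 4 of 7 at BDNF lay in regions of 2 libraries and 5 of 7 at NTRK2 in the region of 3.

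**Figure D3:**
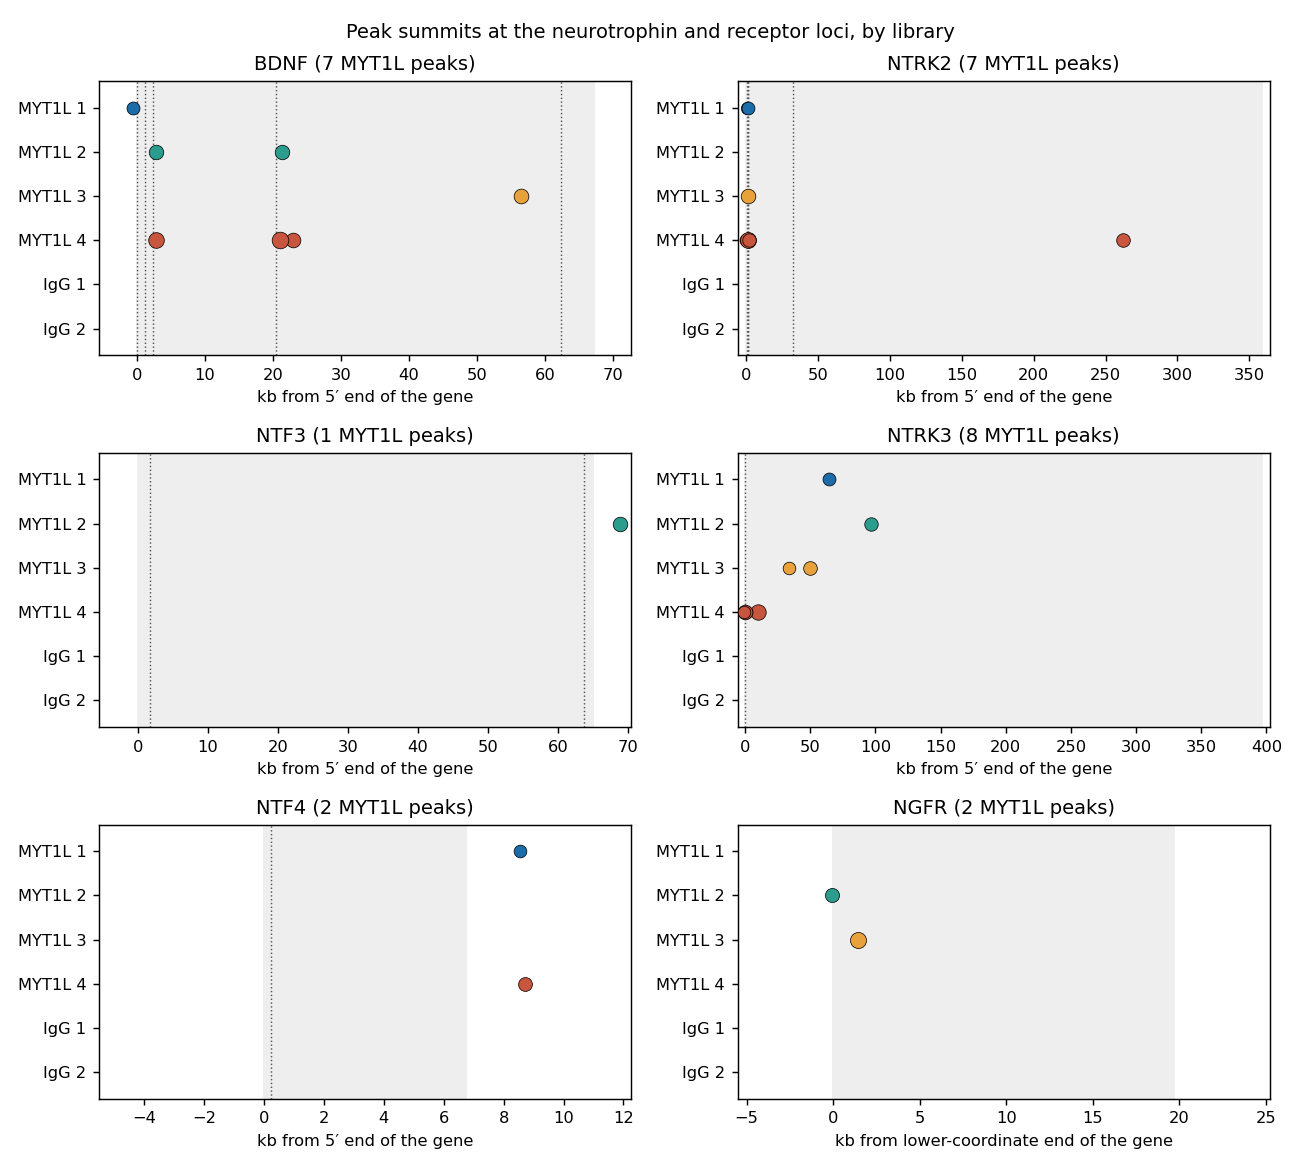
Each panel shows 1 gene (grey), with peak summits placed by distance in kb and by library, point size rising with fold; dotted lines are annotated starts. Summits gather at the 5′ end of NTRK2, are scattered over the 5′ part of NTRK3, and lie beyond the far end of NTF3 and NTF4.

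The ligand genes held 10 of the 27 peaks, or 5.92 per 100 kb over the 4 libraries, against 2.11 for the receptor genes. Their loci cover 169 kb, against 805 kb for the receptor genes. Loci of like length held a mean of 1.09, 1.08 and 0.621 peaks per MYT1L library for BDNF, NTF3 and NTF4. For NTRK2, NTRK3 and NGFR these means were 1.97, 2.11 and 0.782, so they rose less than locus length. The density contrast between ligand and receptor genes cannot be told apart from locus length. Among the ligand genes, BDNF (chromosome 11, 27654893 to 27722030, minus strand) had 7 peaks. MYT1L replicates 1 to 4 had 1, 2, 1 and 3 of them. Of loci within 1.5 times its length, 93% had a MYT1L peak in any library, 81.3% had fewer MYT1L peaks than BDNF, and 62.4% had a reproducible region, which BDNF did not.

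The strongest BDNF region spanned 27700597 to 27701105 and had a peak in replicates 2 and 4. The fold was 5.38 in replicate 2, from 7 fragments, and 7.09 in replicate 4, from 26 fragments, with a mean of 6.24 ± 1.21 (SD, n = 2). The summits lay 896 and 688 bp downstream of an internal start at 27701621. The value in replicate 4 was the highest fold at any member and exceeded that of 70.1% of its list.

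A second BDNF region, 27718465 to 27719342, was shared by the same pair of libraries, with folds of 5.38 and 6.25 in replicates 2 and 4 (mean 5.81 ± 0.616, SD, n = 2). Its summits lay 422 and 326 bp downstream of the start at 27719566. The other BDNF peaks each came from 1 library. One, in replicate 4, had a summit 2561 bp downstream of the start at 27701621, with a fold of 5.51. Another, in replicate 3, lay 5970 bp upstream of the most 3′ start, with a fold of 5.53, where BDNF overlaps the antisense gene BDNF-AS. The last, in replicate 1, lay 487 bp upstream of the 5′ end, with a fold of 4.27, over the noncoding gene LOC124902652. None of the 5 BDNF promoter windows was itself overlapped by a peak, so the summits near BDNF starts lay outside them.

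NTF3 (chromosome 12, 5430332 to 5495299, plus strand) had the fewest peaks of the 6. It had 0 peaks in MYT1L replicates 1, 3 and 4 and 1 peak in replicate 2, from 5499152 to 5499355, with a fold of 5.41 from 8 fragments. The summit lay 68.8 kb from the 5′ end of the 65.0 kb gene, beyond its 3′ end, so the gene body itself held no peak. Of loci of like length, 92.9% had a MYT1L peak in any library, 7.12% had fewer than NTF3, and 62% had a reproducible region, which NTF3 lacked.

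NTF4 (chromosome 19, 49058284 to 49065035, minus strand) had 1 peak in each of MYT1L replicates 1 and 4 and 0 in replicates 2 and 3. The folds were 4.12 and 4.88, a mean of 4.50 ± 0.539 (SD, n = 2), in a region from 49056144 to 49056669. Both summits lay beyond the 3′ end of NTF4 and inside CGB7, a gene of the chorionic gonadotropin beta cluster, and the pseudogene LOC124904739. The genes of that cluster are known to resemble each other in sequence, and how reads were placed among them is not given in the sources used here. The start of NTF4 had no peak. Of loci of like length, 75.1% had a MYT1L peak in any library and 39.1% had fewer MYT1L peaks than NTF4. A reproducible region, which NTF4 lacked, was present at 36.2% of them.

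Among the receptor genes, which held 17 peaks, NTRK2 (chromosome 9, 84668522 to 85027054, plus strand) had the region best shared between libraries. MYT1L replicates 1 to 4 had 2, 0, 1 and 4 peaks at NTRK2. Of loci of like length, 97.9% had a MYT1L peak in any library and 46.9% had fewer MYT1L peaks than NTRK2. Of the same loci, 70.4%, like NTRK2, had a reproducible region. The NTRK2 region ran from 84669421 to 84670907 and joined 5 peaks. The highest fold there was 4.23 in replicate 1, 5.47 in replicate 3 and 6.45 in replicate 4, from 10, 13 and 25 fragments, with a mean of 5.38 ± 1.11 (SD, n = 3). It contains the starts at 84670033 and 84670349, the windows of which are printed above, and the summit of replicate 4 lay 43 bp upstream of the first and that of replicate 3 lay 31 bp upstream of the second.

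The support of this region was thin at the level of bases. Of its 1487 bp, 678 lay under peaks of at least 2 libraries, and 3 bp, from 84670184 to 84670186, under peaks of all 3. The 5 summits were spread over 1080 bp. When peaks had to share at least 50% of the shorter one, the region was no longer reproducible. MYT1L replicate 2, the library with the lowest MYT1L background, had no peak there. Apart from this region, NTRK2 had a replicate 4 peak 473 bp upstream of the start at 84669306 (fold 4.25) and another 262 kb into the gene (fold 4.75), so 6 of its 7 summits lay within 2.17 kb of the 5′ end.

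NTRK3 (chromosome 15, 87859751 to 88256739, minus strand) held the most peaks, 8, in as many separate regions, so no peak was seen in more than 1 library. It had 1 peak in each of MYT1L replicates 1 and 2, 2 in replicate 3 and 4 in replicate 4. Of loci of like length, 98.1% had a MYT1L peak in any library and 52.3% had fewer MYT1L peaks than NTRK3. A reproducible region, which NTRK3 lacked, was present at 72.1% of them. MYT1L replicate 4 alone marked the start, with peaks whose summits lay 831 and 89 bp upstream and 903 bp downstream of it. Their folds were 3.97, 5.48 and 4.23, from 20, 28 and 22 fragments. The local background of these 3 peaks was 4.79 to 4.96 times the lowest of that library, and its part in these calls was not tested. The antisense gene NTRK3-AS1 overlaps this end. The strongest NTRK3 peak by fold, 6.09, was also from replicate 4 and lay 9.61 kb into the gene. The peaks of the other libraries lay 33.4 to 96.6 kb into the gene, with folds of 4.07 to 4.77. No summit lay more than 96.6 kb into the 397 kb gene.

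NGFR (chromosome 17, 49495293 to 49515008) had 0 peaks in MYT1L replicates 1 and 4 and 1 in each of replicates 2 and 3. The peak of replicate 2 had a fold of 5.07 and its summit, at 49495222, lay just outside the lower-coordinate end of the gene. The peak of replicate 3 had a fold of 6.56, from 19 fragments, and its summit lay 1414 bp inside that end. The peaks did not overlap. The latter fold exceeded that of 81.6% of the list of replicate 3, the highest rank of any member peak. Of loci of like length, 84% had a MYT1L peak in any library and 26.7% had fewer MYT1L peaks than NGFR. A reproducible region, which NGFR lacked, was present at 47.1% of them.

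**Figure D4:**
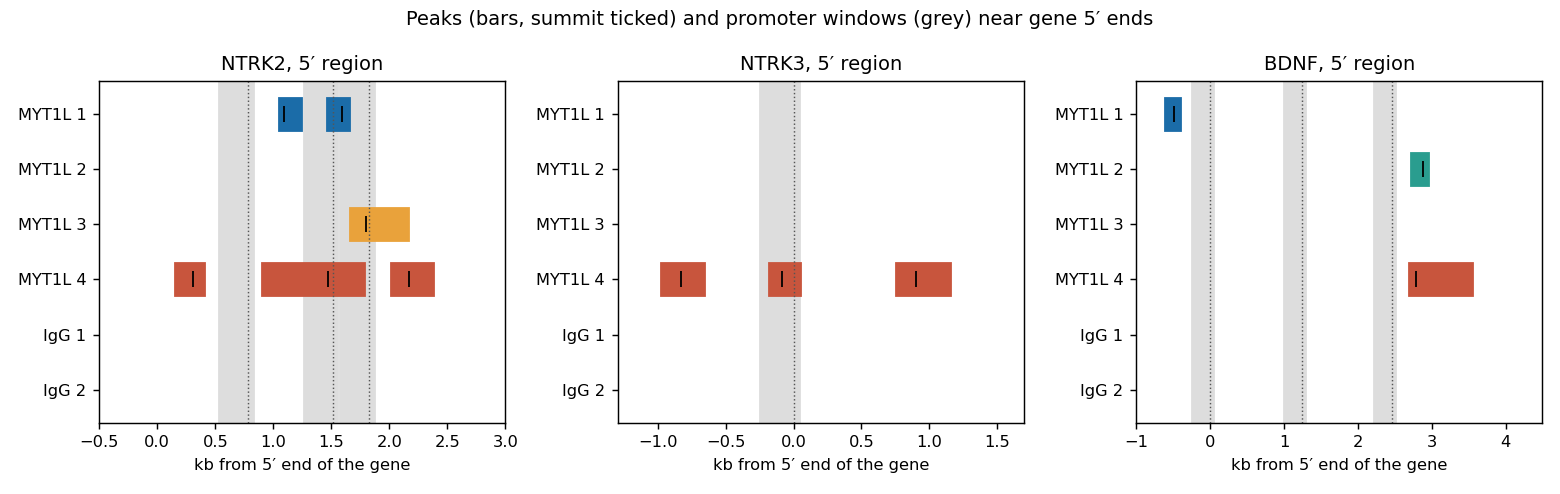
Peaks (bars with the summit ticked) are drawn by library against distance in kb from the 5′ end of NTRK2, NTRK3 and BDNF; grey bands are promoter windows and dotted lines annotated starts. In the stretches drawn, bars of MYT1L replicates 1 and 4 lie over the NTRK2 window at 84670033 and those of replicates 1, 3 and 4 over the one at 84670349, bars near the NTRK3 start are from replicate 4, and BDNF bars lie beside its windows.

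In strength, most member peaks lay below the median fold of their own list. Folds ran from 3.84 to 7.09 with a median of 4.88, and pileups from 7 to 28 fragments with a median of 13. Of the 27, 7 peaks exceeded the median fold of their own list, and the median peak exceeded 34.8% of its list. Whole lists mix peaks of regions in 1 to 4 libraries, whereas 80% of member regions had 1. Against regions with as many libraries, the strongest region exceeded 81.2% in mean fold for both BDNF and NTF3. This rank was 21.0% for NTF4, 31.6% for NTRK2, 92.2% for NTRK3 and 95.5% for NGFR. These regions were picked for their fold, and the lowest rank of a member region was 18.9%. A −log10 q of at least 5 was reached by 15 of the 27. The 3 highest folds of replicate 4 were 7.09 and 6.25 at BDNF and 6.45 at NTRK2. Folds are the authors' own values and depend on the local background of each library, so they describe peaks within a list.

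**Figure D5:**
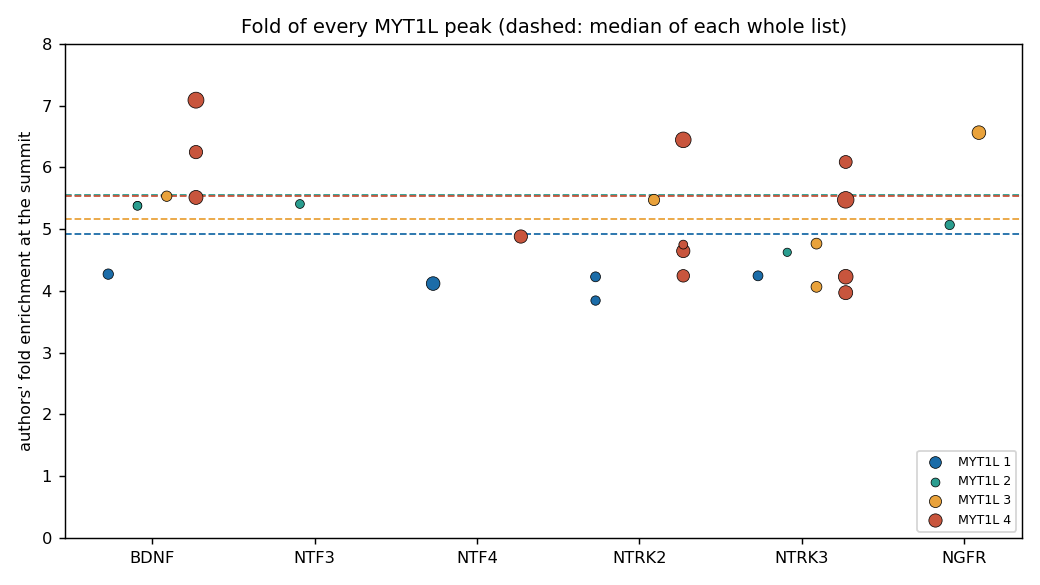
Each point is the authors' fold of 1 MYT1L peak, by gene and library, with point area rising with the fragments at the summit; dashed lines are the median fold of each whole list. Most points lie below the line of their own library, and the highest is the BDNF peak of MYT1L replicate 4 at 7.09.

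Position and base composition were compared next. Of the 27 summits, 14 lay within 1000 bp of an annotated start of their own gene, where NGFR has no start in the table. In the 4 whole lists, 49.3% to 58.2% of the peaks at protein-coding loci lay that close to a start. Of the 13 member windows, 3 were overlapped by a MYT1L peak, and 1 by peaks of at least 3 libraries, against 45.1% and 23.8% of all 35116 windows. The 3 overlapped windows held 38, 17 and 30 CpG dinucleotides, in the order printed. The other 10 held 3 to 32, with a median of 13.5. Over all windows the median was 28 with a MYT1L peak and 4 without. The windows at NTF3 and NTF4 that held 32 and 27 CpG had no peak in any library, so a CpG-rich start was not always marked.

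The letters AAGTTT or AAACTT, searched on both strands, occurred in 3 of the 13 member windows, those printed for BDNF and NTF3, and in 12.8% of all windows. None of the 3 was overlapped by a peak, and the 3 windows under peaks did not hold the letters. Across all windows 7.12% of those with a MYT1L peak and 17.4% of those without held them, and CpG content differed between the same groups, as given above. The longer form AAAGTTT was in 0 of the 13 member windows and in 4.28% of all windows. These matches describe letters in a window of 300 bases and not binding sites.

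Other genes of the pathway were counted from a list of 57, of which 56 were protein-coding in the table. A reproducible region lay at 38 of 56 (67.9%), against 50.3% of all protein-coding loci, and one without an IgG peak at 35 (62.5%), against 48% of all. The share differed by role. It was 15 of 17 for kinases and the transcription factor CREB1, 16 of 20 for receptor adaptors and nearby signalling, 4 of 8 for other ligands and receptors, 2 of 7 for p75 partners and 1 of 4 for enzymes that process precursors. No test was made of these shares, and they were not set against loci of like length. Pathway loci ran from 11521 bp at BEX1 to 633953 bp at SORCS3. Among loci within 1.5 times a member's length, 36.2% for NTF4, 62.4% for BDNF and 72.1% for NTRK3 had a reproducible region. The part of locus length in the pathway shares was not tested.

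Folds above those of the members were found at signalling genes of the list. SHC4, an adaptor of receptor tyrosine kinases, had a fold of 9.83 ± 3.61 (SD, n = 4) from 48878026 to 48878604 on chromosome 15. That region lay inside the gene, which runs from 48823741 to 48963919, and at neither end of it. GRB2, the adaptor that links receptors to Ras, had 9.74 ± 5.80 (SD, n = 3). TRAF6, a ubiquitin ligase that binds p75, had 9.71 ± 3.43 (SD, n = 4). SORCS1, a sorting receptor related to sortilin, had 8.47 ± 2.59 (SD, n = 3). PIK3R1, a regulatory subunit of phosphoinositide 3-kinase, had 8.04 ± 0.852 (SD, n = 4). Each of these 5 means exceeded the 5.38 of the NTRK2 region, but the genes were named for high mean fold, so the order follows from that choice. Of all regions with peaks in 3 MYT1L libraries, 31.6% had a lower mean fold than the NTRK2 region. The means rest on different sets of libraries, and no test was made of their order. Regions were counted at these genes by position alone, and other genes that they may overlap are not given here.

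As likeness, the number of peaks in each of the 6 libraries was compared between each member and all other protein-coding genes, and every member had genes with identical numbers. There were 18 for BDNF, of which RHCE and RRBP1 were nearest in locus length, and 143 for NTF3, with KCNE1 and BTBD16 nearest. NTF4 shared its numbers with 933 genes (nearest RPS9 and LOC124906109), NTRK2 with 21 (KIF6 and MAP2), NTRK3 with 4 (ARHGAP26 and ITPKB) and NGFR with 27 (C4A and B3GNT3). NTRK3, with 8 peaks, thus had the least common pattern of the 6 and NTF4, with 2, the most common. How many genes match depends in part on the number of peaks. Identical numbers take no account of peak position or locus length, which was 118 kb for ITPKB against 407 kb for NTRK3.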

How the data were processed

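Each library had 1 deposited peak list in narrowPeak layout without a header. The submitters' processing notes name MACS2 and hg38; the aligner, the threshold and the use of a control are not given in the sources used here. The deposited fold is a ratio over local background, the deposited −log10 p and −log10 q are the authors' values per peak, and the deposited score is derived from the latter. Groups and replicate numbers came from the titles. The peak names of the MYT1L lists carry sample numbers 2 to 5 in place of 1 to 4, and the titles were followed.

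Peaks on chromosomes 1 to 22, X and Y were used. MYT1L peaks sharing at least 1 bp formed a region, checked against bedtools 2.31.1 and tested on simulated data. Pileups were the whole numbers that reproduced both fold and p within 0.0002 under the MACS formulas, found for at least 99.97% of peaks with −log10 p up to 200 in every library; read totals are unknown. Analyses used Python 3.11.15, numpy 2.4.6, pandas 2.3.3 and scipy 1.17.1, with exact permutation over libraries and exact binomial 95% intervals. The gene table gives no strand, exons or introns, so strands came from the promoter table, and share counts of starts used the chromosomes it covers. All 6 members are named, with each reproducible region and the strongest region of each. Of the pathway list, genes were to be named by the highest mean fold, 6 in all, and some genes the rule selects are not reported here; the 2 genes most like each member are named. Members and lists were chosen with earlier results of these data known. Alternatives were a stricter q, other windows, summits only, equal list lengths, other library numbers and overlaps, each library left out, the shared replicate numbers as a block, ranking by q and a longer motif.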

Additional observations from a re-analysis of the deposited data

Results flagged for a closer look

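Among 10 measures examined over the 4 MYT1L libraries, 2 had a library whose distance from the others took up the whole range of the group. The rate of about 1 in 20 groups that chance gives for continuous values does not hold for small counts with ties. MYT1L replicate 4 had 12 peaks at the 6 loci, while the other 3 libraries had 5 each. Of its list, these peaks were 0.0399%, between the shares of the other libraries. At NTF3, MYT1L replicate 2 had 1 peak and the other 3 libraries had 0, a pattern that any gene with a single peak would show.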

How the results depend on the processing

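Over 12 alternatives the MYT1L libraries had 3 to 8.25 more peaks at the 6 loci than IgG, and their list share was 0.0233 to 0.0379 percentage points above 0. With both IgG libraries at 0 the direction was fixed, so its recurrence is no sign of stability. A MYT1L library was also at 0 for the stricter q (replicate 2) and for equal list lengths (replicate 1), with exact permutation p = 0.4 in both. The mean density ratio was below 1 in its 11 alternatives (0.448 to 0.723). None of these tests can pass 0.05 in this design. With the replicate block, taking differences within the numbers 1 and 2 that both groups share, the values were 5 peaks and 0.0293 points. Deviations of same-numbered libraries from their group means had r of 0.0104 and -0.0104 across 20037 loci. With 2 IgG libraries these deviations mirror each other, and IgG peaks lay at only 1.61% and 2.9% of loci. The r values therefore cannot decide whether same-numbered libraries share more than a number.

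The number of reproducible regions at the members, 1, was 0 for peaks with −log10 q no lower than 5, with equal numbers of top peaks, with all 4 libraries required and with an overlap of at least 50% of the shorter peak. It was 4 with at least 2 libraries, 2 within 25 kb, and 1 to 4 over the fits without 1 library, where 2 of 3 sufficed. It was 3, 2 and 4 without MYT1L replicates 1, 2 and 3. The members with such a region changed from 1 to 0 in the same settings, to 3 with at least 2 libraries, to 2 within 25 kb, and ranged from 1 to 3 without 1 library. The pathway count of 38 was 22 with all 4 libraries and within 1.5 times in its other 14 alternatives (27 to 47). Ranking by −log10 q moved the strongest NTRK3 peak to the one at the start, with a fold of 5.48 in place of 6.09. AAAGTTT was in 0 member windows, against 3 for AAGTTT. The lowest pileup called was 4 to 7 fragments, and a count of 0 in the IgG lists does not bound their share below that of MYT1L.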

Other observations

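The gain within 25 kb came from a region near NTF4 that belongs to another gene. It spanned 49085099 to 49085859 on chromosome 19, 20.1 kb from NTF4, and overlapped SNRNP70, which encodes a protein of the U1 splicing particle. Its fold was 8.08 ± 1.82 (SD, n = 3), with no IgG peak.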
